A study of Mus musculus with 14 samples.

Results

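The baseline transcriptome of the wild-type mouse lung at postnatal day 6 was described from 7 arrays, the wild-type controls among the 14 arrays of a study of lungs without Atxn1 or Atxn1l. Of these, 4 are the controls collected with the Atxn1l knockouts (here the Atxn1l set) and 3 the controls collected with the Atxn1 knockouts (the Atxn1 set). They were chosen by their titles alone, and no knockout array was used. Each array holds RNA from the lung of a wild-type C57BL/6J mouse born to heterozygous parents. The titles name only the knockout that each array is a control for. From this the parents were taken as Atxn1l heterozygotes for the one set and Atxn1 heterozygotes for the other. The series text names both kinds of intercross but gives Atxn1-/- as the knockout of both sets, and the titles were followed. Lungs were dissected, frozen in liquid nitrogen and extracted with Trizol, and 100 ng of total RNA was labelled for the Affymetrix mouse Gene ST array, version 1. The labels name no treatment and give no litter and no sex.

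At this age the mouse lung is turning from a saccular into an alveolar organ. Ridges called secondary septa grow from the walls of the air sacs, with elastin laid down by myofibroblasts at their tips and a capillary network folded around them. Flat type 1 cells exchange gas, cuboidal type 2 cells secrete surfactant, club cells and ciliated cells line the airways, and endothelial cells make up much of the wall. Whole tissue mixes all of them, so a lower level can mean fewer cells of a type or less RNA in each, which cannot be told apart here.

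Every value is a log2 level of a probe set, and within an array the 21212 probe sets were ranked from 1, the brightest, and placed on a percentile scale on which 100 is the brightest. A rank depends on how well the probes of a gene bind as well as on its RNA, so it places a probe set among the others on its array and does not say which of 2 genes has more transcript. The authors normalized the sets apart, and array medians lay between 8.44 and 8.48 for the former and between 9.21 and 9.24 for the latter. Levels are therefore compared within a set and only ranks across sets. To show where signal ends, 1286 olfactory, vomeronasal and taste receptor genes, which work in sensory cells outside the lung, were taken as a reference. On each array the percentile that 95% of them did not pass served as a floor, and it lay at 27.4 to 30.5. Of all probe sets 66.3% lay above this floor on all 7 arrays and 25.1% below it on all 7, the latter without being shown to be absent. Replicate 1 of the Atxn1 set stood slightly apart, with Spearman rank correlations across probe sets of 0.990 and 0.991 to the others of its set, which had 0.994 between them. Its levels spanned a narrower range (SD over probe sets 1.78, against 1.85 and 1.87), and it was highest of its set in 11 of 11 brain, 10 of 11 testis and 8 of 8 retina and lens genes, all of which lie mostly near the floor. Replicate 3 of that set held most of the highest levels among variable genes, and counts that rest on either array are given with and without it.

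Bright, dim and variable genes differed in the CG content before their start, so 4 examples are printed here, each the 100 bases before the start in RefSeq's mouse assembly GRCm38.p6, 5′ to 3′ on the gene's own strand, with every CG dinucleotide and the motif TATAAA in capitals. Eef1a1, on chr9:78481725-78481824 (minus strand), encodes the elongation factor that brings transfer RNAs to the ribosome. Ager, on chr17:34597750-34597849 (plus strand), encodes the receptor that marks type 1 cells. S100a8, on chr3:90668971-90669070 (plus strand), encodes a chain of the calprotectin of neutrophils, and Reg3g, on chr6:78468875-78468974 (minus strand), an antibacterial lectin of mucosal epithelium. Both are among the most variable genes below. They are not typical of these in TATAAA, which the same stretch of Myl7, Scgb3a1, Mmp8 and Xist, also variable, does not hold.
Eef1a1: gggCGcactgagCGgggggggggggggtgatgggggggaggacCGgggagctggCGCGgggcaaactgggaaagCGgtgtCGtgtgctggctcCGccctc
Ager: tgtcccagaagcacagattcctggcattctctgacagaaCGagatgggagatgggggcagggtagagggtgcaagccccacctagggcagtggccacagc
S100a8: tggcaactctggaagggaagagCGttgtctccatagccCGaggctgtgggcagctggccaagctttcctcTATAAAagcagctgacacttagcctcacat
Reg3g: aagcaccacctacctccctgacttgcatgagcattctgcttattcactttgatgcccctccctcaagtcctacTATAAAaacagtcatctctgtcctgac
The Eef1a1 stretch holds 8 CG and no TATAAA, that of Ager 1 CG and no TATAAA. S100a8 has 2 CG and a TATAAA that starts 30 bases before the gene, and Reg3g has no CG and a TATAAA that starts 27 bases before it.

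These examples stand for the groups only in part. A promoter sequence was matched for 15060 of the 18784 named genes (80.2%). Over the 250 bases before the start, the ratio of CG dinucleotides to the number that the C and G content alone would give had a median of 0.592. It was 0.775 in the brightest 20% of genes and 0.166 in the dimmest 20%. Ager, bright in lung on every array, had a ratio of 0.149, near the median of the dimmest genes. The letters TATAAA, on either strand (TATAAA or TTTATA) and wholly within the window from 45 to 16 bases before the start, occurred in 3.41% of all matched genes, in 1.85% of the brightest 20% and in 7.43% of the dimmest 20%. Of the 200 probe sets with the largest spread between arrays of the Atxn1l set, 111 had a matched promoter, with a median CG ratio of 0.234 and TATAAA in 11 (9.91%). In the Atxn1 set 127 of the 200 were matched, with a median ratio of 0.234 and TATAAA in 8 (6.3%). The genes most variable between wild-type lungs thus had CG ratios closer to those of the dimmest than of the brightest genes, at a median percentile of 40.7 and 45.6. A match of letters is a description and not a binding site.

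All 5 markers fixed for the lung were bright on every array. Sftpc, which encodes surfactant protein C of type 2 cells, ranked 4, 3, 3 and 3 in the Atxn1l set and 3, 2 and 2 in the Atxn1 set, at log2 levels of 13.95 ± 0.02 (SD, n = 4) and 14.33 ± 0.10 (SD, n = 3). Scgb1a1, the secretoglobin of club cells, ranked 11, 12, 12 and 12, then 14, 4 and 10. Ager ranked between 121 and 185, Pecam1, the adhesion molecule of endothelial cells, between 305 and 401, and Eln, which encodes elastin, between 186 and 442. The 7 arrays thus carried the markers of alveolar and airway epithelium, endothelium and elastic matrix within the brightest 442 of 21212 probe sets. Eln was brightest by rank on replicate 1 of the Atxn1l set and dimmest on replicate 3 of the Atxn1 set. Its levels were 12.40 ± 0.10 (SD, n = 4) and 12.61 ± 0.09 (SD, n = 3). These SDs lay above the medians of all probe sets from percentile 80 up, 0.0717 and 0.0721.

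The 20 named genes with the best median rank mixed products of every cell with products of lung cells. Actb, cytoplasmic actin, ranked 1 or 2 on all 7 arrays. Eef1a1 ranked 1 or 2 in the Atxn1l set and 6, 9 and 5 in the Atxn1 set. Mfap4, a microfibril protein that binds elastin and collagen, ranked 2 to 5. Others of this group were Sparc, a matrix protein of mesenchyme (ranks 5 to 8), Vim, the intermediate filament of mesenchymal cells (7 to 19), Txn1, a thioredoxin (4 to 17), Lyz1, a lysozyme (12 to 25), Cbr2, a carbonyl reductase of club cells (12 to 35), and Adh1, an alcohol dehydrogenase that oxidizes retinol (11 to 27). Nrep (14 to 28), Csrp1 (9 to 22), Gnb1 (10 to 25), Serinc3 (16 to 62), Tpt1 (16 to 43) and the gene model Gm10012 (8 to 16) also belonged to it. The replication histones H4c4 (5 to 11), H2ac15 (14 to 36) and H3c4 (9 to 39) were among the 20, and histone genes are near-identical copies whose probes may bind each other's transcripts. In all, 69 probe sets, 58 of them named, were among the 100 brightest on each of the 7 arrays. Of the 58, 6 belonged to the type 2 cell list (Sftpc, Sftpb, Sftpa1, Lyz2, Cxcl15 and Slc34a2), 3 to the club cell list, 2 to the type 1 list and 5 to the genes commonly used as PCR references, and 36 to none of the 53 lists described below.

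**Figure D1:**
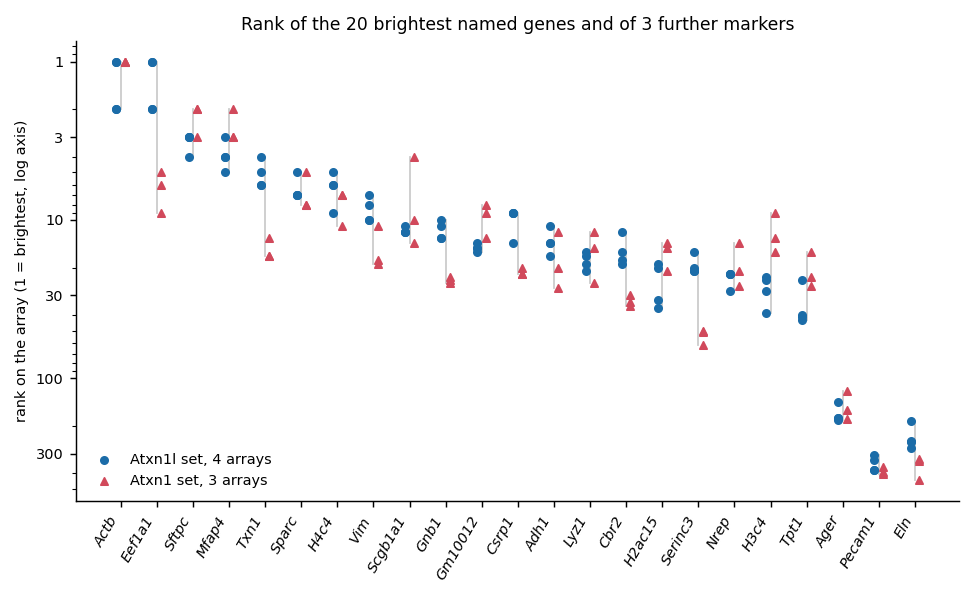
Rank of the 20 brightest named genes and of Ager, Pecam1 and Eln on each wild-type array, on a log axis with 1, the brightest probe set, at the top; circles are the 4 arrays of the Atxn1l set, triangles the 3 of the Atxn1 set, and grey lines span all 7. Actb stays at rank 1 or 2, and Sftpc at ranks 2 to 4, whereas Eef1a1 lies at 1 or 2 in the Atxn1l set and at 5 to 9 in the Atxn1 set.

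Gene lists of cell types and processes were then placed on the percentile scale by the median of their members over the 7 arrays. Of the 53 lists, 32 had a median above 50. The highest of the cell type lists were surfactant-producing type 2 cells at 98.4, general capillary endothelium at 97.8 and type 1 cells at 96.0. All 20 measured type 2 genes, all 18 type 1 genes and all 16 general capillary genes lay above the receptor floor on all 7 arrays, as 66.3% of all probe sets did. Among type 2 genes the brightest after Sftpc were Sftpb, surfactant protein B (99.9), Lyz2, a lysozyme shared with macrophages (99.9), and Sftpa1, surfactant protein A (99.8). Slc34a2, the phosphate carrier of type 2 cells, stood at 99.8. Among type 1 genes these were Cldn18, the tight-junction claudin of alveoli (99.9), Emp2, a membrane protein (99.7), and Cav1, the coat protein of caveolae (99.5).

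Airway epithelium split into bright club cell products and dimmer ciliated and basal genes. The 15 measured club and secretory genes had a median of 80 but ranged from 23.0 to 99.9, from Bpifa1, an antimicrobial secreted protein, to Scgb1a1. The 18 ciliated cell genes had a median of 44.3, with Tppp3, a microtubule protein, at 96.3 and Foxj1, the master regulator of motile cilia, at 53.9. Of 9 basal and neuroendocrine genes, 5 lay above the floor on all arrays. Their brightest was Grp, the gastrin-releasing peptide, at 65.3, and Krt5, the keratin of basal cells, stood at 26.2, below the floor.

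Endothelial genes were bright as a class. Calcrl, a receptor of adrenomedullin, and Cldn5, the endothelial claudin, both stood at 99.7 and Cdh5, the junction cadherin, at 99.6. Aerocytes are the large capillary cells that face the air. Of their 10 measured genes all were above the floor on all arrays, with a median of 92.3, led by Emcn, a sialomucin (98.6), and Car4, a carbonic anhydrase (97.2). Artery and vein genes had a median of 79.8 and lymphatic genes of 64.7, the latter with Lyve1, a hyaluronan receptor, at 99.2 and Prox1, the lymphatic master regulator, at 39.6. Lyve1 is also made by other cells of the lung, so its level does not stand for lymphatic vessels alone.

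Mesenchymal genes lay nearly as high. Smooth muscle and myofibroblast genes had a median of 88.5, pericyte genes of 87.0, alveolar fibroblast genes of 86.4 and adventitial fibroblast genes of 83.5. Acta2, the smooth muscle actin, stood at 99.5, Tgfbi, a matrix protein induced by transforming growth factor beta, at 99.5, and Hhip, an antagonist of Hedgehog made by myofibroblasts and smooth muscle, at 96.3. Postn, periostin, stood at 99.6, Npnt, nephronectin, at 99.5, and Cd34, a surface sialomucin shared with endothelium, at 99.6. Mesothelial genes had a median of 68.8, led by Upk3b at 87.4, with Msln, mesothelin, at 86.7 and the mesothelial transcription factor Wt1 at 42.2.

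Matrix genes followed the same order of brightness. Elastic fibre genes had a median of 88.7 and 17 of 17 members above the floor on all arrays, among them Fbln5, which carries elastin onto microfibrils (98.9), Mfap2, a microfibril glycoprotein (98.9), and Lox, which cross-links elastin (88.7). Basement membrane genes had a median of 89.7 with 17 of 17 above the floor, and Nid1, nidogen, stood at 98.1 and Lamc1, a laminin chain, at 98.0. Fibrillar and other collagens had a median of 81.6, with Col1a1 of collagen I at 97.7.

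Signals of septation were measured on both sides. The 38 ligand genes had a median of 77.0 and the 40 receptor and target genes one of 89.8, and 37 of 38 and 40 of 40 lay above the floor on all arrays. The brightest ligands were Vegfa, the endothelial growth factor (98.7), Bmp4 (97.2) and Bmp5 (97.0), both bone morphogenetic proteins, and Fgf1 (94.5). Pdgfa, the ligand that calls myofibroblast precursors, stood at 93.5 and its receptor gene Pdgfra at 93.4. Shh, the Hedgehog ligand of epithelium, stood at 75.7, its receptor and target Ptch1 at 96.2 and its target Gli1 at 58.8. Fgf10, made by mesenchyme, stood at 75.1 and Fgf18 at 87.7. Among the receptors Bmpr2, the type 2 receptor of bone morphogenetic proteins, was brightest (99.6), followed by Eng, a coreceptor of endothelium (98.7), Tek, the angiopoietin receptor (97.4), and Nrp1, a coreceptor of Vegfa (97.2). All 25 lung transcription factors lay above the floor on all arrays, with a median of 82.6, from Foxf1 of mesenchyme and endothelium (99.6), Nfib (99.3), Id2 (98.9) and Tbx4 (97.5) through Nkx2-1 of lung epithelium (80.3) to Sox2 of airway epithelium (41.5).

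Transport and growth genes were also high. The ion and water transport list had a median of 86.9, with the water channels Aqp1 of endothelium at 98.5 and Aqp5 of type 1 cells at 95.4 and the sodium channel subunit Scnn1g at 96.6. Cell cycle genes had a median of 75.8 and 23 of 23 members above the floor, led by Mki67, a chromosome coat protein of dividing cells (95.3), and cyclin Ccna2 (94.1). Surfactant lipid synthesis stood at 84.5, oxidative phosphorylation at 85.9 and ribosomal proteins at 96.9.

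Leukocyte genes lay lower. Macrophage genes had a median of 53.6, with Csf1r, the growth factor receptor of macrophages, at 82.1 and Marco, a scavenger receptor of alveolar macrophages, at 31.6. Platelet genes stood at 53.7, monocyte and dendritic genes at 44.8, neutrophil genes at 38.7, B cell genes at 38.6, erythroid genes at 37.6, mast cell and basophil genes at 35.5 and T and NK cell genes at 30. Of the 15 T and NK genes 6 were above the floor on all arrays and 6 below it on all, and the brightest was Cd3e, a chain of the T cell receptor complex, at 54.2. Red cell RNA was visible through Hbb-bt, a globin chain (98.0), and Alas2, the first enzyme of erythroid haem synthesis (96.4), while the erythroid list had 8 of 14 genes above the floor on all arrays.

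Tissues that a dissection can carry along were mostly dim. Skeletal muscle (median 27.9), thymus (21.2), brown and white fat (25), liver (21.4), and thyroid and oesophagus (28.0) lay below or within the range of the floor, as did brain (28.3), testis (19.7), pancreas and gut (29.0), and retina and lens (16), which lie outside the chest. Single members of these lists stood higher, such as Cpa1, a pancreatic carboxypeptidase (72.2), and Oxt, oxytocin (61.3), each the only member of its list in the upper part of the scale, above 50. Cartilage, with a median of 36 and 7 of 13 genes above the floor on all arrays, and heart muscle lay higher. Heart muscle had a median of 44.5 and 11 of 15 genes above the floor on all arrays, led by Actc1, the cardiac actin (90.2), and Myl4, the atrial light chain (90.1).

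**Figure D2:**
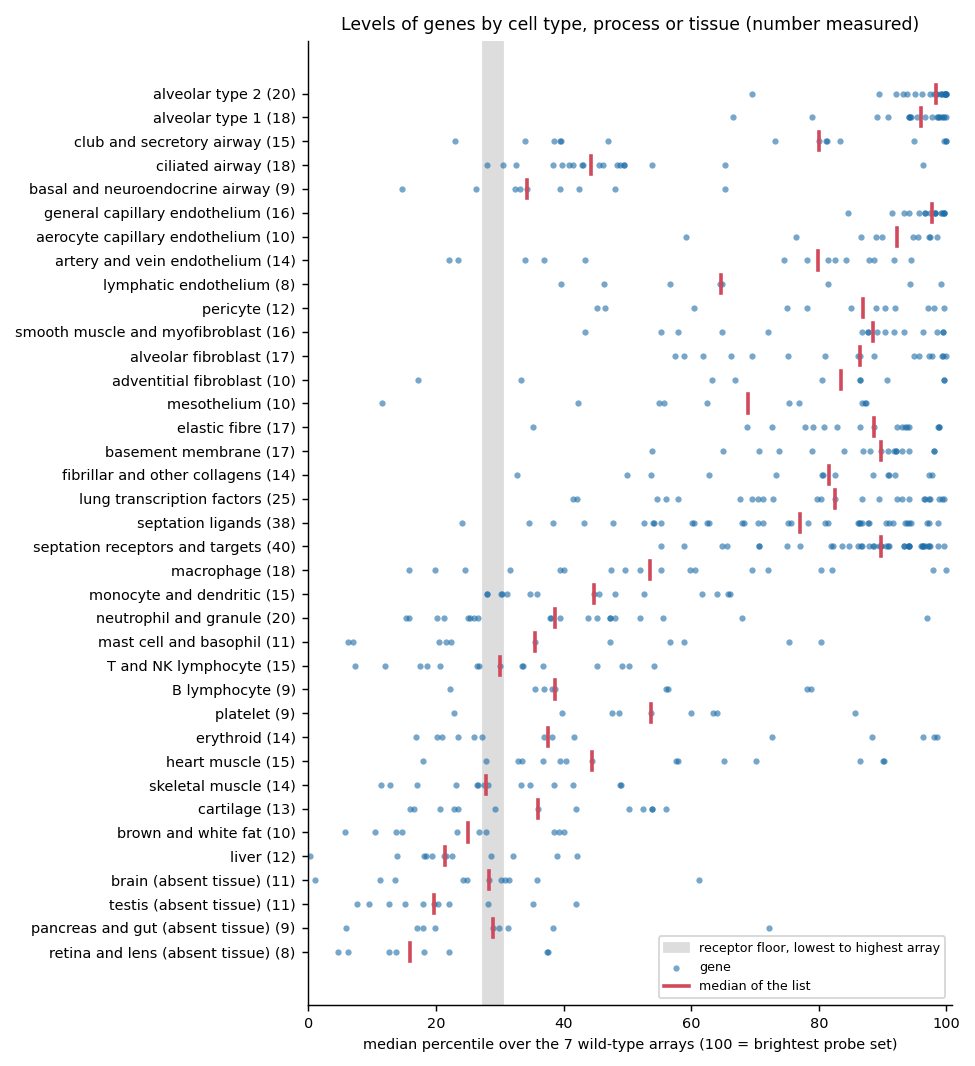
Median percentile over the 7 wild-type arrays of each gene (points) in 37 of the gene lists, with the median of each list as a red line, the number of genes measured in brackets and the receptor floor (27.4 to 30.5) as a grey band. Lists of alveolar epithelium, capillaries and matrix lie to the right, medians 81.6 to 98.4, and lists of tissues other than lung lie at or left of the band, except heart muscle at 44.5 and cartilage at 36.0.

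The ranks of both control sets were then set against each other. The Spearman correlation between single arrays was 0.995 to 0.997 within the Atxn1l set, 0.990 to 0.994 within the Atxn1 set and 0.977 to 0.987 across sets, over 6, 3 and 12 pairs of arrays. For the medians of each set it was 0.987. These correlations run across probe sets, which share the same probes in both sets and are not independent. The median size of the shift between the set medians was 2.4 percentile points, and 95.7% of probe sets moved by under 10 points. The scale is bounded at both ends, which limits shifts there. The median shift was 1.69 points in the lowest 25% of the scale, 1.73 in the highest 25% and 3.34 in between. Of the 100 brightest probe sets of either set 77 were shared, and of the 1000 brightest 862. In all, 88.2% of probe sets lay in the same 25% band of the scale in both sets.

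A shift of 10 points or more with no overlap between the sets was found for 405 probe sets higher in the Atxn1l set (1.91%) and 430 higher in the Atxn1 set (2.03%). Without replicate 1 of the Atxn1 set 327 were higher in the Atxn1l set, and without replicate 2 of the Atxn1 set 590. Of the 835, 665 lay between 25 and 75 on the scale. Counting a shift of any size, 10527 probe sets (49.6%) had no overlap between 4 and 3 arrays. No test was made across the sets, because normalization, breeding and any batch go with the set and cannot be told apart. Of the 835 shifted probe sets 25.7% had no gene symbol, against 11.4% of all. The 5 lung markers shifted by at most 0.387 points, but they lie at the top of a bounded scale, where shifts in points are small, and by rank Eln ran from 186 to 442.

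Among named genes without overlap, those shifted most included histones, ribosomal protein genes and a small nucleolar RNA. H2ac4, a replication histone, stood at percentiles 27.4, 23.8, 31.1 and 34.3 in the Atxn1l set and at 74.4, 78.0 and 74.6 in the Atxn1 set, a shift of -45.3 points (Atxn1l minus Atxn1 set). The sets did not overlap, and each was narrow beside the gap. H2bc3 shifted by -27.5, H2bu2 by -22.9, Rpl32l by -31.1, the small nucleolar RNA gene Snord34 by -22.8, Cd302, a lectin receptor, by -23.8, and Naa38, a subunit of a protein acetyltransferase, by -22.2. Avp, vasopressin, shifted by -24.9, from 34.7 to 59.6. The family of replication histones, chosen after these values were seen, had 49 measured members, of which 10 were called higher in the Atxn1 set (2.03% of all probe sets) and 0 in the Atxn1l set, and 40 of 49 had a shift below 0, against 47.5% of all named genes. The other 7 called members were H3c1 (-20.7), H4c3 (-20.3), H2bc18 (-18.5), H2bc1 (-15.6), H2bc15 (-12.1) and the linker histones H1f1 (-10.8) and H1f5 (-10.6). In the Atxn1l set H3c1, H2bc1 and H2bu2 lay below the receptor floor on all 4 arrays, and H2ac4 on replicates 1 and 2. The shifts of these genes therefore do not compare 2 levels above the floor.

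In the other direction, Rps25, a protein of the small ribosomal subunit, stood at 65.1, 71.6, 67.7 and 65.9 in the Atxn1l set and at 37.4, 47.9 and 42.3 in the Atxn1 set, a shift of 24.5 points. Slc25a40, a mitochondrial carrier, shifted by 23.8, Lin52, a subunit of a cell cycle repressor complex, by 23.1, Uxt, a prefoldin-like protein, by 22.4, and Pcdhb13, a protocadherin, by 21.6. Olfr171, an olfactory receptor gene, shifted by 24.2, 9330151L19Rik by 23.2 and Gm4787 by 20.7. For Olfr171 the levels spread widely within each set (SD 0.431 and 0.454), and on the Atxn1-set arrays it lay below the floor. Of the PCR reference genes only Pgk1, a glycolytic kinase, was called, at 57.8 and 75.9 (shift -18.1).

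**Figure D3:**
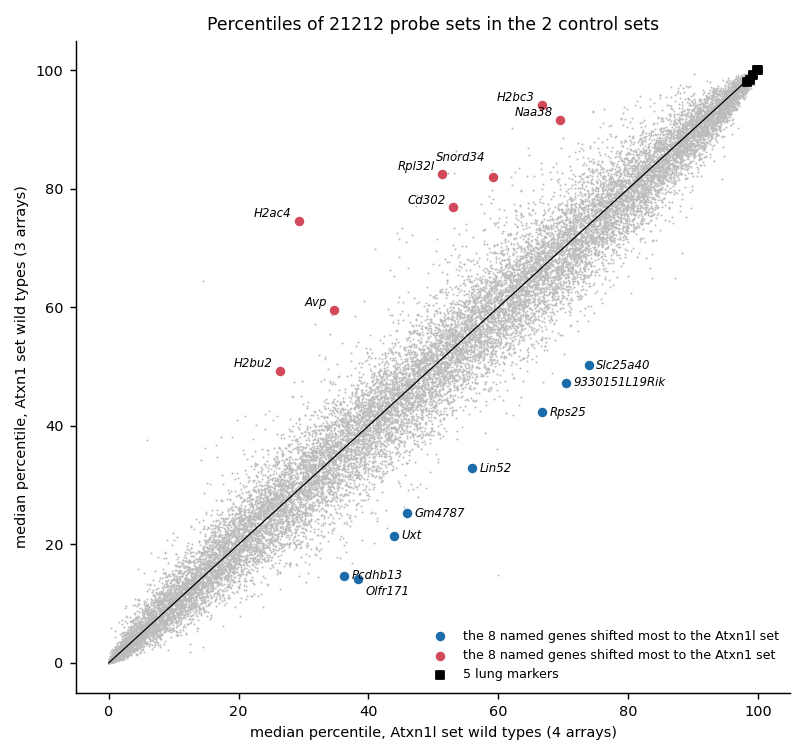
Median percentile of each of 21212 probe sets (grey) in the 4 Atxn1l-set wild types (horizontal) and the 3 Atxn1-set wild types (vertical), with the line of equal percentiles. The 8 named genes shifted most to each side are coloured and the 5 lung markers are black squares at the upper right; of the coloured genes H2ac4 lies farthest from the line, at 29.3 and 74.6.

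Spread between wild-type lungs was small for most genes. The median SD was 0.0893 log2 units over the 4 arrays of the Atxn1l set and 0.102 over the 3 of the Atxn1 set. An SD of 0.5 or more was found for 68 probe sets (0.321%) in the Atxn1l set, 202 (0.952%) in the Atxn1 set and 32 (0.151%) in both. Without replicate 3 of the Atxn1 set its count was 269, without replicate 2 it was 260 and without replicate 1 it was 165. The 200 of largest SD in each set, a share of 0.943%, had 59 in common, 29.5% of each list, and 46 of the 59 had a name. Across all probe sets the SDs of both sets had a Spearman correlation of 0.288, over arrays normalized in different runs. In the Atxn1 set replicate 3 was the array farthest from the others for 100 of the 200, and higher in 95 of these, whereas replicate 1 was farthest for 71 and lower in 58. In the Atxn1l set replicate 4 was farthest for 62 (higher in 50), replicate 2 for 60, replicate 3 for 47 and replicate 1 for 31.

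**Figure D4:**
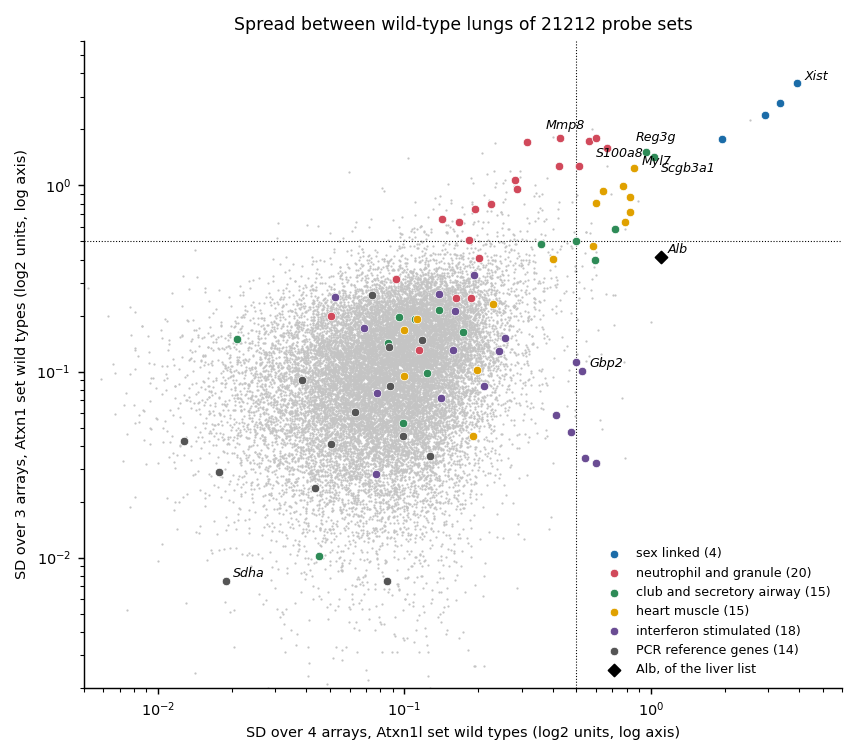
SD of each of 21212 probe sets over the 4 Atxn1l-set arrays (horizontal) and the 3 Atxn1-set arrays (vertical), both on log axes, with dotted lines at 0.5 and 6 gene lists and Alb coloured. Sex-linked, heart muscle and secretory airway genes reach 0.5 in both sets, neutrophil genes mostly in the Atxn1 set, and interferon genes such as Gbp2 in the Atxn1l set alone.

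Sex-linked genes led both sets. Xist, the RNA that coats the inactive X chromosome of females, was at 6.32, 6.59, 13.25 and 13.29 in the Atxn1l set and at 6.89, 6.94 and 13.04 in the Atxn1 set. It was thus high on 2 of 4 and 1 of 3 arrays, and on those arrays all 3 measured Y-linked genes were low. Eif2s3y, a translation factor gene of the Y chromosome, had levels of 10.12, 10.15, 4.44 and 4.22, then 10.16, 10.67 and 5.64. Uty (SD 2.92 and 2.38) and Kdm5d (SD 1.94 and 1.78), both histone demethylase genes of the Y, had the same arrays high and low. All 4 genes had an SD of 0.5 or more in both sets, and 0 of 4 in the Atxn1 set without replicate 3, its 1 array with high Xist. Without these 4 genes, 64 and 198 probe sets had an SD of 0.5 or more.

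Heart muscle genes varied in both sets. Myl7, the light chain of atrial myosin, was at 9.56, 8.08, 10.08 and 8.99 in the Atxn1l set and at 11.14, 8.95 and 11.08 in the Atxn1 set, a 4.00-fold and 4.54-fold range. Replicate 3 was the highest and replicate 2 the lowest in the Atxn1l set, and replicate 2 was the lowest in the Atxn1 set. In mice, cardiac muscle continues from the left atrium along the pulmonary veins into the lung. Of 15 heart muscle genes 8 had an SD of 0.5 or more in the Atxn1l set and 7 in the Atxn1 set. The 7 shared were Myl7, Myl4, Sln, a regulator of the calcium pump, Myh6, the alpha myosin heavy chain, Actc1, and the troponins Tnnt2 and Tnni3, and the eighth was Pln, phospholamban. Replicate 3 was the highest in 12 of the 15 and replicate 2 the lowest in 10 in the Atxn1l set, and replicate 2 was the lowest in 14 in the Atxn1 set. Part of this order was not particular to heart muscle. In 14 skeletal muscle and 11 brain genes, Atxn1l-set replicate 3 was the highest in 11 and 8. Atxn1-set replicate 2 was the lowest in 9 and 10 of them, Atxn1l-set replicate 2 in 5 and 0. In both lists 0 genes had an SD of 0.5 or more. No share over all probe sets was taken. Other heart muscle genes had small SDs. Myl2, the ventricular light chain, had an SD of 0.1 and 0.0951 at percentile 18, below the floor on all arrays, Nppa of atrial natriuretic peptide 0.1 and 0.168 at 33.5, and Myh7, the beta myosin heavy chain, 0.19 and 0.0453 at 57.6. The counts rested on single arrays, with 4 of 15 without replicate 2 of the Atxn1l set and 0 without replicate 2 of the Atxn1 set. Tbx20, a cardiac transcription factor in no list, was among the 10 most variable genes of the Atxn1l set, at 8.18, 6.49, 8.52 and 7.72, with the same order of arrays. Casq2, Ttn and Tnnc1, which encode a calcium store protein, titin and cardiac troponin C, were among the 200 of both sets.

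Secretory airway genes also varied in both sets. Scgb3a1, a secretoglobin of the larger airways, was at 9.74, 10.49, 12.15 and 10.35 in the Atxn1l set and at 10.79, 9.40 and 12.25 in the Atxn1 set, a 5.29-fold and 7.19-fold range. Reg3g was at 7.41, 8.06, 9.59 and 7.77, then 7.88, 7.38 and 10.23. Replicate 3 was the highest of its set in both, and in the Atxn1l set replicate 3 was the highest in 10 of the 15 genes of the list. Bpifb1, a secreted lipid-binding protein, had an SD of 0.720 and 0.582, and Muc5b, the gel-forming mucin of airways, of 0.497 and 0.504. Club cell products of small airways were far steadier, with SDs of 0.0209 and 0.149 for Scgb1a1 and 0.0988 and 0.0531 for Cyp2f2, a cytochrome of club cells. Both were among the 100 brightest on all 7 arrays, and bright probe sets had small SDs (medians 0.0717 and 0.0721 from percentile 80 up). The contrast is therefore also one of brightness. In the Atxn1l set 4 of 15 members had an SD of 0.5 or more, and 0 without replicate 3. In the Atxn1 set 4 had one, and 3 without replicate 3. On the same Atxn1l-set array, replicate 3, ciliated genes were the highest in 13 of 18 and heart muscle genes in 12 of 15. The same held for 11 of 14 skeletal muscle and 8 of 11 brain genes, so such counts are not particular to airway or heart. Of the ciliated genes 0 had an SD of 0.5 or more. The part of ciliated and heart muscle genes in the spread of the secretory genes was not tested.

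Neutrophil genes had their largest SDs in the Atxn1 set. S100a8 was at 8.36, 8.97, 7.74 and 7.85 in the Atxn1l set and at 9.35, 9.32 and 12.33 in the Atxn1 set, an 8.05-fold range in the latter. Replicate 3 of the Atxn1 set was far above the others of its set. Of 20 neutrophil and granule genes, 14 had an SD of 0.5 or more in that set, and 0 without replicate 3, which was the highest in 15 of the 20. Mmp8, the collagenase of neutrophil granules, was at 7.86, 7.77 and 10.94, Retnlg at 8.91, 8.84 and 11.98, Cxcr2, the chemokine receptor of neutrophils, at 7.79, 8.01 and 10.86, and Ly6g, their surface marker, at 7.04, 6.96 and 9.20. The stefin A protease inhibitors, a family taken after its values were seen and whose copies are near-identical, had 6 of 7 members past 0.5 there, and 1 without replicate 3, with Stfa2 at 8.06, 8.57 and 11.79. Of the 7, 3 were past 0.5 in the Atxn1l set, and 0 without its replicate 2. In the Atxn1l set replicate 2 was the highest in 15 of 20 neutrophil genes, by less: 4 had an SD of 0.5 or more (S100a8, S100a9, Ngp and Retnlg), and 1 without replicate 2. The genes Lcn2 and Chil3 of this list are also made by epithelium and macrophages. In the Atxn1 set 5 of 15 monocyte and dendritic genes had an SD of 0.5 or more, among them Ccr2, a chemokine receptor (8.25, 8.75 and 10.24), as did 2 of 18 macrophage genes, Chil3 and Msr1. Without replicate 3 both counts were 0. The monocyte and dendritic list was mixed on that array, which was the highest in 5 of its 15 members and the lowest in 7, whereas it was the highest in 14 of 18 macrophage genes. Lymphocyte genes did not share this order, with replicate 3 the lowest in 11 of 15 T and NK genes. It was the lowest in 5 of 9 B cell genes and the highest in 0. Of the T and NK genes, however, 6 lay below the floor on all arrays. They were the highest on replicate 1 in 10 of 15, the array that was also the highest in 11 of 11 brain genes.

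Genes induced by glucocorticoids were highest on the same array. Replicate 3 of the Atxn1 set was the highest in 15 of 15, and the mean of the list was 11.05 there against 10.56 and 10.58. Zbtb16, a zinc finger protein, was at 9.55, 9.42 and 10.65, Errfi1, a feedback inhibitor of growth factor receptors, at 12.36, 12.73 and 13.21, and Fkbp5, a chaperone of the receptor, at 8.95, 9.08 and 9.52. Of the 15, 3 had an SD of 0.5 or more (Zbtb16, Per1 and Lcn2), and 0 without this array. Lcn2 is also a member of the neutrophil list. Immediate early and stress genes were the highest on it in 15 of 22, though Egr1 was not (11.33, 10.64 and 10.54). Such counts were not particular to these lists. The same array was the highest in 15 of 21 oxidative phosphorylation genes and 12 of 16 hypoxia and glycolysis genes, but in 0 of 17 basement membrane genes. No share over all probe sets was taken. In the Atxn1l set Egr1 was at 10.78, 10.39, 9.83 and 9.58, an SD of 0.541, the 1 of 22 genes of its list past 0.5, and 0 were past it without replicate 1 or without replicate 4. Per1, a clock gene that glucocorticoids also induce, was at 10.73, 10.96, 9.66 and 10.55 in that set and at 9.93, 9.87 and 10.87 in the Atxn1 set. It was the 1 glucocorticoid gene of 15 past 0.5 in the Atxn1l set, and 0 were past it without replicate 3.

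Interferon-stimulated genes were high on 1 array of the Atxn1l set. Gbp2, a guanylate-binding protein of cell defence, was at 8.81, 8.79, 8.91 and 9.89 in the Atxn1l set and at 9.36, 9.34 and 9.53 in the Atxn1 set. Replicate 4 of the Atxn1l set stood alone above the others, and was the highest in 15 of 18 genes of this list. Rtp4, a chaperone of membrane receptors induced by interferon, was at 8.28, 8.31, 8.40 and 9.53, and Gbp3 at 7.43, 7.82, 7.75 and 8.70. An SD of 0.5 or more was found for 3 of 18 genes, and for 0 without replicate 4. In the Atxn1 set 0 of 18 had one. Among the interferon-induced GTPases, a family taken after its values were seen, 7 of 15 had one in the Atxn1l set, and 0 without replicate 4: Gbp2, Gbp3, Gbp4, Gbp6, Igtp, Irgm1 and Ifi47. In the Atxn1 set the count was 0 of 15. Whether the sets differ in this was not tested. The same array held the highest level of Alb, serum albumin of liver (7.32, 7.10, 7.33 and 9.43). It was the highest in 7 of 12 liver genes, among them Ahsg, a plasma protein (7.52 against 6.43 to 6.87), and Apoa1, an apolipoprotein (8.21 against 7.74 to 7.92), with a list mean of 6.94 against 6.51 to 6.69. The liver list is dim, however, with 7 of its 12 genes below the receptor floor on all 7 arrays and 2 above it on all. Its mean lay under the floor on each array of the set, where the floor stood at levels of 7.13 to 7.31. Ahsg on the other arrays lay under it as well. Alb was the 1 liver gene with an SD of 0.5 or more. The part of these genes in the result was not tested.

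**Figure D5:**
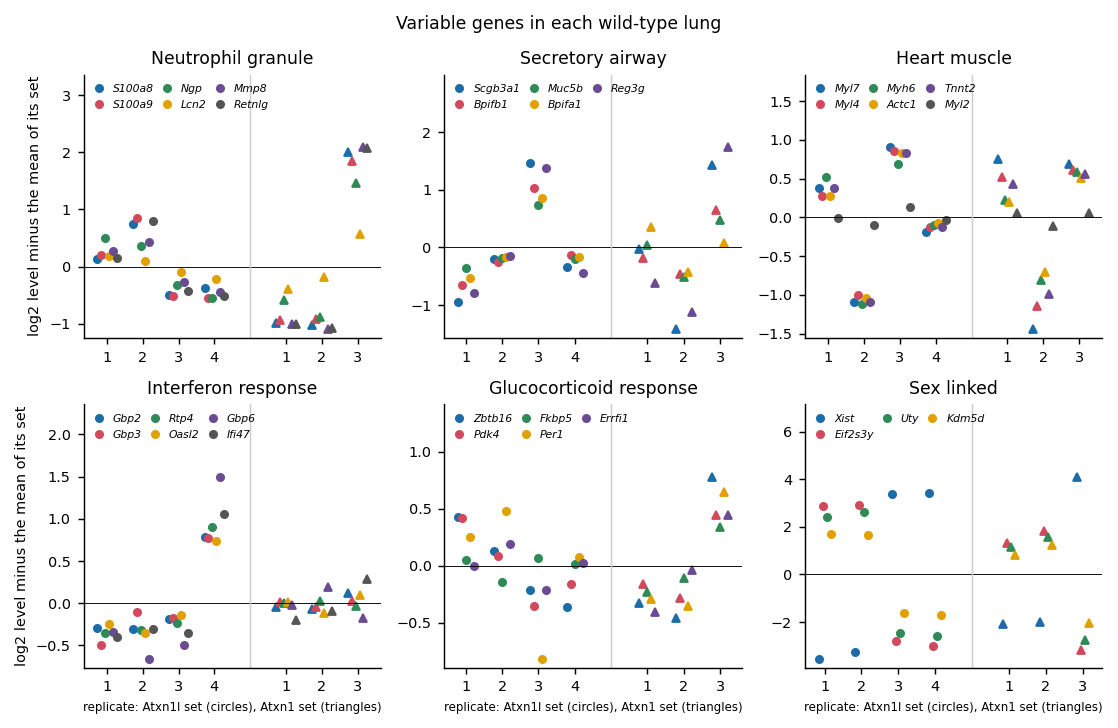
Log2 level minus the mean of its own set for genes of 6 groups on each wild-type array, Atxn1l set as circles left of the grey line and Atxn1 set as triangles right of it. Replicate 3 of the Atxn1 set stands high for neutrophil genes (S100a8 at 12.33 against 9.32 and 9.35), replicate 2 of each set low for the heart muscle genes other than Myl2, which stays near 0, and replicate 4 of the Atxn1l set high for interferon genes.

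No gene of the main alveolar and matrix lists reached the SD of 0.5. Of the 20 type 2 genes, 18 type 1 genes, 16 general capillary genes, 17 elastic fibre genes, 14 collagens and 17 basement membrane genes, 0 had an SD of 0.5 or more in either set (0.321% and 0.952% of all probe sets). At such small shares, a count of 0 in lists of this size does not set these genes apart. Median SDs over all probe sets were 0.0893 in the Atxn1l set and 0.102 in the Atxn1 set. Those of type 2 genes (0.0588 and 0.0812), type 1 genes (0.0747 and 0.0652) and collagens (0.0805 and 0.0572) lay below these in both sets. Bright probe sets had smaller SDs, however, and these lists are bright. From percentile 80 up, the median SDs of all probe sets were 0.0717 and 0.0721. Type 2 genes lay below that in the Atxn1l set alone, and type 1 genes and collagens in the Atxn1 set alone. Basement membrane genes (0.172), elastic fibre genes (0.121) and general capillary genes (0.0968) had medians above 0.0893 in the Atxn1l set. In the Atxn1 set their medians were 0.054, 0.102 and 0.084. Some differences ran through a whole list. Basement membrane genes were the highest on replicate 1 of the Atxn1l set in 15 of 17 and the lowest on replicate 3 in 15 of 17, with a list mean of 10.82 against 10.45, and in the Atxn1 set the lowest on replicate 3 in 16 of 17. Replicate 1 of the Atxn1l set was also the highest in 13 of 17 elastic fibre genes and 28 of 40 septation receptors and targets. It was the highest in 0 of 17 ribosomal protein genes. Its place was thus not particular to basement membrane, and no share over all probe sets was taken. Nid1 was at 12.42, 11.92, 12.07 and 12.23, then 12.49, 12.54 and 12.47. Cell cycle genes were the highest on replicate 4 and the lowest on replicate 2 of the Atxn1l set in 17 of 23 each, and in the Atxn1 set the lowest on replicate 2 in 20 of 23. Replicate 2 of the Atxn1 set was also the lowest in 14 of 15 heart muscle and 10 of 11 brain genes, but in 0 of 17 basement membrane genes. Its place was thus not particular to the cell cycle, and no share over all probe sets was taken for these counts. Mki67 was at 11.40, 11.20, 11.40 and 11.46, then 12.12, 12.02 and 12.19. The SD of Nid1, 0.212 in the Atxn1l set and 0.0383 in the Atxn1 set, was above the median of all probe sets in the former alone, and that of Mki67 was 0.114 and 0.0897.

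Among named genes above percentile 50 on all arrays, those with the smallest summed SD were Retreg3, Klhl22, Rassf8, Opa1, Mrpl35, Snx9, Sdha, Alg10b, Dnajc5 and Twf2. Sdha, a subunit of succinate dehydrogenase, was at 11.24, 11.22, 11.23 and 11.27 and at 11.97, 11.96 and 11.98. Opa1, the fusion protein of the inner mitochondrial membrane, was at 10.38, 10.35, 10.35 and 10.37, then 10.87, 10.88 and 10.89. Sdha was the only gene of this group among the 14 measured PCR references, and 0 of these 14 had an SD of 0.5 or more. Actb had an SD of 0.0128 and 0.0422, Eef1a1 of 0.0178 and 0.0287, Rplp0, a ribosomal protein, of 0.0433 and 0.0237, and Eef2, an elongation factor, of 0.0505 and 0.0410. Gusb, a lysosomal enzyme, had 0.0629 and 0.0607, Tbp, the TATA-binding protein, 0.0987 and 0.0453, Ywhaz, an adaptor protein, 0.0386 and 0.0900, and B2m, the light chain of MHC class I, 0.0877 and 0.0832. Hprt, a purine salvage enzyme, had 0.0866 and 0.135, Tubb5, a tubulin, 0.0855 and 0.00747, Rpl13a, a ribosomal protein, 0.127 and 0.0352, Tfrc, the transferrin receptor, 0.118 and 0.147, and Pgk1 0.0743 and 0.259. Tfrc in the Atxn1l set and Pgk1 in the Atxn1 set lay above the median SD of all probe sets, 0.0893 and 0.102, as did Tbp and Rpl13a in the Atxn1l set and Hprt and Tfrc in the Atxn1 set.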

How the data were processed

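Lung RNA of 14 mice was measured on Affymetrix mouse Gene ST arrays, and the 7 wild-type arrays were used here. The 7 knockout arrays were left out. The deposited values are log2 levels that the authors made with RMA, and per the submitters' processing notes RMA and limma were used, with no versions. The 8 arrays of the Atxn1l experiment and the 6 of the Atxn1 experiment were processed separately. For the probe set definitions, the version is not given in the labels used here. The number of arrays limits the precision of every SD.

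Probe sets carry Entrez gene numbers, and 18786 of 21212 were named with 1 symbol, 6 with several and 2420 with none. A gene with several probe sets was represented by the brightest. Of 875 gene list entries, 798 were matched to a probe set. Where several genes share near-identical sequence their probe sets may share signal. Ranks, percentiles and SDs were computed in Python 3.11.15 (pandas 2.3.3, numpy 2.4.6, scipy 1.17.1) and plotted with matplotlib 3.10.9. Alternative normalizations were run with limma 3.58.1 in R 4.3.3, and the counting of shifts and SDs was tested on simulated data. The design has no contrast to test. An exact permutation test of 4 against 3 arrays could not give a two-sided p below 0.0571.

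The genes named are the 5 markers, the 20 of best median rank, up to 4 brightest and 2 dimmest of a list, the 10 of largest SD in each set and those among the 50 of both, the 8 shifted most in each direction, the 10 steadiest, and all reference and sex-linked genes. Further list members were named for their role or after their values were seen. The samples, lists and measures were chosen with earlier results of these data known. Other normalizations, filters, thresholds and left-out arrays were tried. Nothing in the labels says whether arrays of a set came from separate litters.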

Additional observations from a re-analysis of the deposited data

Results flagged for a closer look

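In the Atxn1l set, the level of each named gene and the mean of each list were checked for an array far from the other 3, and 16 of 303 (5.28%) had one, where chance gives about 1 in 20. Some of these genes were named for a large SD in this same set or after their values were seen. The share is therefore no test against chance, and the arrays below are described only. The Atxn1 set, with 3 arrays, was not checked. Replicate 4 was the array that stood apart for 8 genes, replicate 2 for 5, replicate 1 for 3 and replicate 3 for 0.

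On replicate 4, 5 interferon-induced genes were high: Gbp2 at 9.89 against 8.79 to 8.91, Gbp6 at 9.37 against 7.22 to 7.54, Ifi47 at 9.64 against 8.19 to 8.28, Irgm1 at 9.88 against 8.50 to 8.73, and Rtp4 at 9.53 against 8.28 to 8.40. The same array held the liver genes Alb at 9.43 against 7.10 to 7.33 and Serpina1a at 4.49 against 3.88 to 3.96, the latter among the dimmest probe sets. Prox1 was low on it, at 7.78 against 8.05 to 8.08.

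On replicate 2, Rpl13a stood at 12.7 against 12.43 to 12.47, Tpt1 at 13.44 against 13.22 to 13.24 and Snord34 at 9.34 against 8.94 to 8.99. Mx1 was low on it, at 5.31 against 5.44 to 5.47, as was Tubb5, at 12.78 against 12.95 to 12.96. On replicate 1, 3 genes were low: Slc25a40 at 9.48 against 9.76 to 9.78, 9330151L19Rik at 9.27 against 9.56 to 9.60, and Nrep at 13.36 against 13.47 to 13.49.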

How the results depend on the processing

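Of 53 summary values recomputed under another normalization, filter or threshold, 45 stayed within the limits set for them, and 8 moved, all through a threshold or filter. The shifts counted were 2095 higher in the Atxn1l set and 2021 higher in the Atxn1 set at 5 percentile points, and 12 and 39 at 20 points, against 405 and 430 at 10 points. An SD of 0.3 gave 300 probe sets in the Atxn1l set and 943 in the Atxn1 set, against 68 and 202 at 0.5. The Spearman correlation between the set medians was 0.974 over only the probe sets above the receptor floor on at least 1 array, against 0.987, and the floor was 23.3 as the 90th percentile of the receptor genes, against 29.4. Leaving out each array in turn moved none of 63 summary values beyond these limits: that correlation ranged from 0.985 to 0.988, shifts higher in the Atxn1l set from 327 to 590, shifts higher in the Atxn1 set from 414 to 557, SDs past 0.5 from 61 to 87 and from 165 to 269, and the shared share of the 200 from 21% to 28%. The limit for a count was a fixed ratio to the reported count, and a wide one. Within it lay 590 shifts against 405, and 269 SDs past 0.5 against 202. A count that stayed within the limits was therefore not an unchanged count. For single genes and lists, 222 of 2106 values moved under other settings and 447 of 5705 without 1 array. No paired analysis was possible because no result comes from a test and equal replicate numbers do not tie arrays of the sets together. Precision is limited by 4 and 3 arrays, and dim probe sets near the floor cannot be told from absent transcript.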
